A study of Mus musculus with 18 samples.

Results

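The 10 genes described here, Tmsb10, Lsp1, Crip1, Fxyd5, S100a4, S100a6, S100a10, S100a11, Vim and Anxa2, encode actin-binding, calcium-binding and membrane-skeleton proteins that are abundant in leukocytes arriving from the blood. They are 10 of the 55414 gene identifiers listed for 18 RNA libraries of purified mouse brain microglia, and all 10 were among the 10948 genes with enough counts to be tested. They were chosen by name with their levels in the same libraries already known, so their levels and the differences between groups are given as a description. Where a count of these genes called by the model over all genes is printed, it describes them too and is no independent test. The libraries formed 4 groups labelled by sex and by Chd8 genotype, namely female Chd8 knockout (KO, 4 libraries), female wild type (WT, 4), male KO (5) and male WT (5). Chd8 is a member of the CHD group of chromatin remodelers. The labels give no age, strain, allele, promoter or number of altered copies, do not say in which cells Chd8 was altered, leave a prefix (HX) unexplained, and do not say that each library came from its own animal, so the spread between libraries may be partly technical. The RNA was sequenced by MARS-seq adapted to bulk samples. It tags polyadenylated transcripts near their 3′ end, and a random barcode (the unique molecular identifier, UMI) lets copies of one molecule be counted once. Levels are given in CPM, the usual scaling of UMI counts to a common library size.

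Circulating monocytes and neutrophils crawl and squeeze through vessel walls, which needs fast assembly and disassembly of actin filaments. Thymosin beta proteins such as Tmsb10 hold actin monomers in reserve, Lsp1 binds actin filaments in leukocytes, and Vim forms the intermediate filaments of motile cells. Most S100 proteins change shape when they bind calcium and then attach to partners such as annexins and non-muscle myosin. Resting microglia are long-lived and settled in the tissue, and high RNA of several of these genes in a brain myeloid preparation is commonly used to recognise cells of blood origin, although activated microglia and border macrophages also make them.

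The 4 S100 genes share chromosome 3 (GRCm38), and the other 6 genes lie on other chromosomes. S100a4 (ENSMUSG00000001020) was annotated at chr3:90603771-90606045 and S100a6 (ENSMUSG00000001025) at chr3:90612882-90624181, 6837 bases apart. S100a11 (ENSMUSG00000027907), at chr3:93520488-93526287, and S100a10 (ENSMUSG00000041959), at chr3:93555080-93564643, were 28793 bases from each other and 2896307 bases from S100a6. Of the 14 genes of the S100A family on this chromosome 9 were tested. The other members were Tmsb10 (ENSMUSG00000079523, chr6:72957347-72958748), Lsp1 (ENSMUSG00000018819, chr7:142460809-142494867), Fxyd5 (ENSMUSG00000009687, chr7:31032722-31042481), Crip1 (ENSMUSG00000006360, chr12:113146316-113153879), Vim (ENSMUSG00000026728, chr2:13573927-13582826) and Anxa2 (ENSMUSG00000032231, chr9:69453620-69491795).

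The start regions of these genes are shown because the genes varied together across the libraries. RefSeq promoters of GRCm38.p6, from 250 bases before the start to 50 bases after it, matched 8 of the 10 genes and gave 10 promoters, with Lsp1 and S100a10 unmatched. TATAAA holds the core promoter letters bound by the TATA-binding protein. It was found on either strand in 3 of the 10 promoters (3 of the 8 genes), against 13.6% of 32851 promoters searched. TGANTCA, the AP-1 letters, was found in 2 of the 10 promoters (2 of the 8 genes), against 7.81%. The stretches below run in the direction of the gene with the matched letters in capitals. The TATAAA of Vim begins 32 bases before the RefSeq start, that of S100a4 31 bases and that of Anxa2 17 bases before it. The TGANTCA matches begin 95 bases before the start in Anxa2, and 136 and 38 bases before it in S100a11.
Vim, chr2:13574267-13574296, + strand: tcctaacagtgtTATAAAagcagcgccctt
S100a4, chr3:90603727-90603756, + strand: ggcctggcagggTATAAAtaggtcagattg
Anxa2, chr9:69453654-69453683, + strand: ggatggggcgggTATAAAagccccacccag
Anxa2, chr9:69453577-69453606, + strand: tccaagttggaTGAGTCAcccagcagggtg
S100a11, chr3:93520349-93520378, + strand: cagagacctgtTGAGTCAcagggactacaa
S100a11, chr3:93520447-93520476, + strand: cgggcacagccTGAGTCAggctgaggggcg

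GAGGAA holds the core letters of PU.1, the ETS factor that directs myeloid cells. It was found in 4 of the 10 promoters, against 28.3% of all promoters. These belong to 4 of the 8 genes (Fxyd5, S100a11, S100a4 and Vim). GGGCGG, the GC box, was found in 6 of the 10 promoters, from 4 genes (Anxa2, Crip1, S100a11 and Tmsb10), against 35.7% of all promoters. The matches of these 4 motifs did not overlap in the stretches printed. No motif was shared by all 8 genes.

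The libraries differed in depth and in how far each molecule had been amplified. They held 435838 to 9149144 UMIs from 2405764 to 17313836 reads, with female KO replicate 33 and female WT replicate 34 the shallowest. Reads per UMI fell into 3 ranges, 1.79 to 1.89 in 8 libraries, 2.94 to 3.12 in 6, and 5.52 to 7.26 in 4, and the highest range held 1 female KO and 3 female WT libraries and no male one. All 11 microglial markers examined, P2ry12, Tmem119 and Cx3cr1 among them, were at 10 CPM or more in every group, and their sum was 22824 to 31943 CPM. Chd8 itself was 123 ± 10.8 CPM in female KO and 166 ± 24.3 CPM in female WT libraries (SD, n = 4 each), and 104 ± 8.52 CPM in male KO and 152 ± 12.7 CPM in male WT libraries (SD, n = 5 each). Its log2 fold change was -0.44 ± 0.12 (SE) in females and -0.54 ± 0.10 in males, with adjusted p of 0.055 and 0.0017 by edgeR's quasi-likelihood test. The KO libraries thus kept 74.3% of the WT mean in females, where the groups overlapped, and 68.6% in males. Whether the counted 3′ ends lie in the altered part of the gene is not given in the sources used here, so this level does not check the genotype, and KO and WT are used as the labels give them.

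Of the sex-linked genes, Xist was at most 0.869 CPM in each male library and 25.7 CPM or more in each female one. The summed UMIs of 4 Y-linked genes (Ddx3y, Eif2s3y, Kdm5d and Uty), scaled by the library total, were 23.3 to 50.8 CPM in male KO and 29.3 to 52.4 CPM in male WT libraries, and 0 to 0.758 CPM in female WT libraries. Female KO replicate 33, the shallowest library, stood apart with 20.6 CPM on 9 UMIs, against 0.962 to 2.08 CPM in the other 3 female KO libraries. It also had the lowest Xist of the female libraries, 25.7 CPM on 10 UMIs. Without it the median log2 fold change of the 10 genes for KO over WT in females was -1.71, with 10 of the 10 called lower, against -1.56 and 9 with it. For male over female in KO it was -0.79 with 4 called, against -0.80 and 5 with it. For the difference of the KO effect between the sexes it was -1.53 with 5 called, against -1.35 and 2 with it.

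All 10 genes had their highest group mean in female WT libraries. In 9 of them female KO came second, above both male groups. The exception was Lsp1, for which male WT came second. The male KO and male WT libraries overlapped for every gene, in a comparison where 4.58% of all genes were lower and 5.27% higher in KO without overlap. The SD was largest in female WT for all genes but S100a4 and Vim, for which it was largest in female KO, and the order among the female WT libraries recurred from gene to gene: replicate 34 was the highest of the 4 for 7 genes and replicate 31 the lowest for 9.

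**Figure D1:**
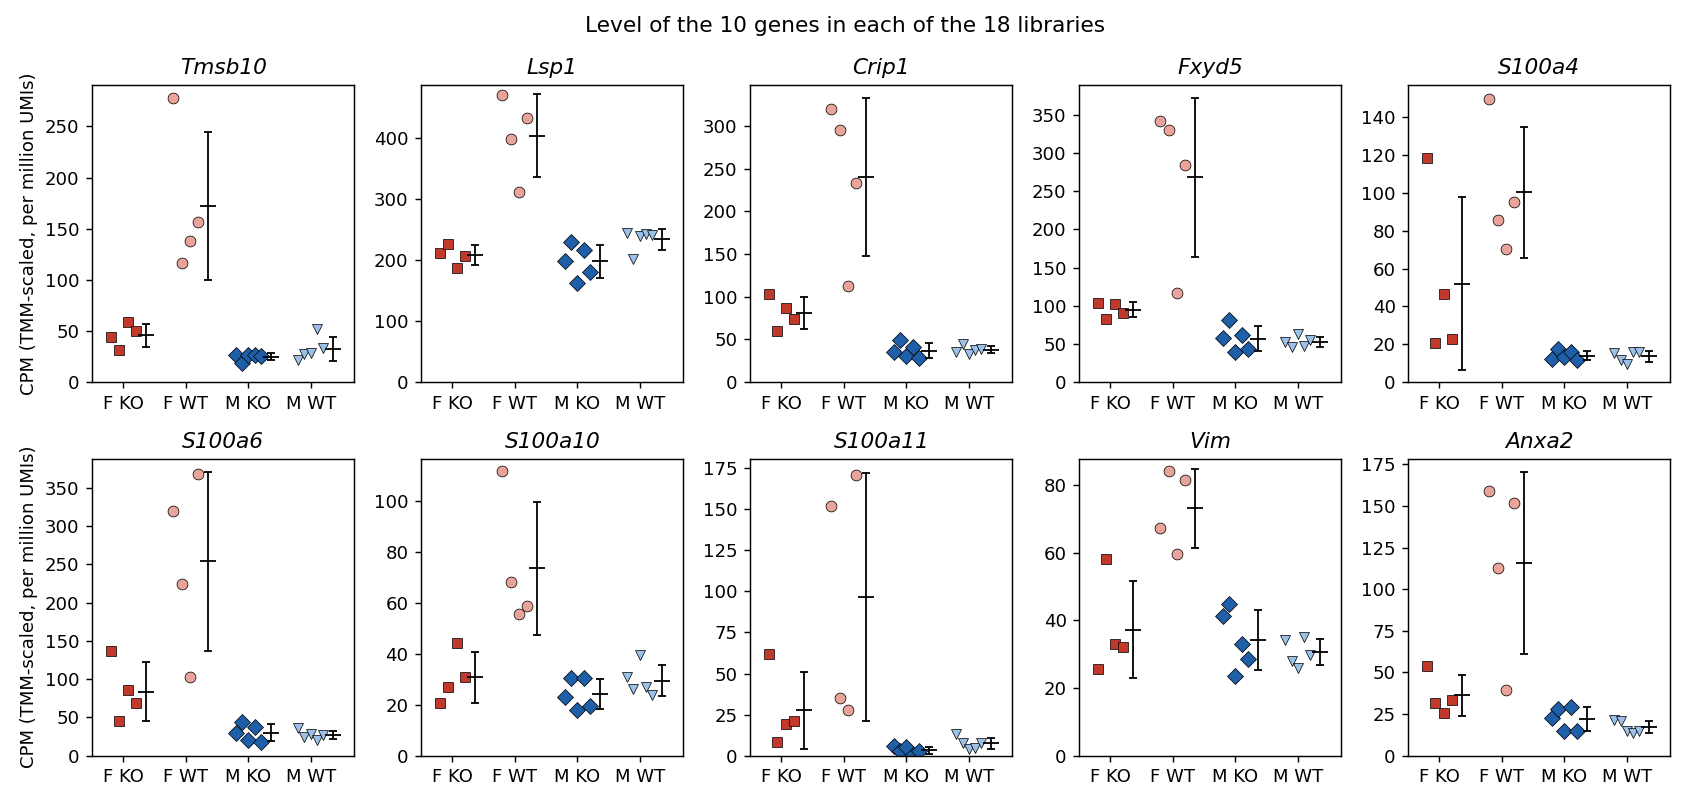
Level of each gene in CPM (TMM-scaled, linear axis from 0) in every library of the 4 groups (F female, M male), with the group mean and SD beside the points. The female WT mean is the highest in each panel, and the male KO and male WT points overlap.

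Tmsb10, which sequesters actin monomers, had 43.7, 31.1, 58.2 and 49.4 CPM in female KO libraries (replicates 33, 16, 1 and 7), against 278, 116, 138 and 156 CPM in female WT libraries (replicates 34, 39, 31 and 30). The lowest female WT library was above the highest female KO library. In males it had 26.6, 18.2, 26.4, 26.1 and 25.2 CPM in KO libraries (replicates 36, 6, 9, 17 and 40) and 21.9, 26.9, 28.5, 52.1 and 33.2 CPM in WT libraries (replicates 13, 37, 10, 11 and 14). The male groups overlapped, with a single WT library, replicate 11, standing above the rest. The log2 fold change of KO over WT was -1.86 ± 0.27 (SE) in females, which is 3.63-fold lower, and -0.42 ± 0.24 in males. Near-identical copies limit the count of this gene: 6 annotated copies of at least 95% identity to its 3′ end held 404 UMIs, equal to 18.7% of the 2162 UMIs given to Tmsb10.

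Lsp1, a leukocyte protein on actin filaments, varied little within groups, with a coefficient of variation of 7.64 to 16.8%. Its level was 211, 225, 186 and 207 CPM in female KO libraries and 470.2, 398, 311 and 433 CPM in female WT libraries, again with no overlap. Male KO libraries had 198, 229.7, 162, 216 and 179.9 CPM and male WT libraries 243, 202, 238, 243 and 240.4 CPM. The female KO libraries overlapped those of both male groups, at 207 ± 16.2 CPM (SD, n = 4), with 197 ± 27.1 CPM in male KO and 233 ± 17.8 CPM in male WT libraries (SD, n = 5 each). For Lsp1 the log2 fold change of KO over WT was -0.95 ± 0.14 in females and -0.24 ± 0.12 in males.

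Crip1, a small LIM-domain protein, had 103, 59.2, 86.5 and 73.4 CPM in female KO libraries, against 320.2, 295, 113 and 234 CPM in female WT libraries. In males it had 35.2, 48.9, 29.9, 41.1 and 27.6 CPM in KO libraries and 35.6, 43.9, 32.5, 37.4 and 38.9 CPM in WT libraries. Female WT replicate 31, at 113 CPM, was close to the highest female KO library. Every male library was below every female one. Fxyd5, a single-pass membrane protein that regulates the sodium pump and cell adhesion, showed a similar pattern. It had 103, 82.5, 102 and 90.9 CPM in female KO libraries and 343, 331, 116 and 284 CPM in female WT libraries. Male KO libraries had 58.0, 80.6, 39.3, 61.4 and 43.2 CPM and male WT libraries 52.5, 45.3, 62.6, 47.2 and 55.5 CPM. The female groups did not overlap for either gene, with replicate 31 again the lowest of the female WT libraries. The log2 fold change of KO over WT in females was -1.61 ± 0.25 for Crip1 and -1.50 ± 0.25 for Fxyd5. In males it was -0.06 ± 0.22 for Crip1 and 0.10 ± 0.22 for Fxyd5.

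S100a4 and S100a6, neighbours on chromosome 3, encode calcium-binding proteins, of which S100a4 binds non-muscle myosin and S100a6 is also called calcyclin. S100a4 had 118, 20.8, 46.4 and 22.7 CPM in female KO libraries and 150.0, 85.6, 70.3 and 95.2 CPM in female WT libraries. The groups overlapped because female KO replicate 33, the shallowest library, was above 3 of the 4 female WT libraries on 46 UMIs. In males S100a4 had 12.02, 17.5, 12.9, 15.7 and 11.6 CPM in KO libraries and 15.1, 11.7, 9.51, 15.9 and 15.6 CPM in WT libraries, below every female library. S100a6 had 136, 45.2, 85.5 and 68.5 CPM in female KO libraries and 320.2, 225, 103 and 368 CPM in female WT libraries. It had 29.3, 44.1, 19.9, 37.5 and 18.5 CPM in male KO libraries and 35.6, 24.8, 28.03, 19.98 and 26.5 CPM in male WT libraries. The female groups overlapped here too, through female KO replicate 33 and female WT replicate 31, and all male libraries were below all female ones. The log2 fold change of KO over WT in females was -1.27 ± 0.36 for S100a4, the only one of the 10 genes not called there at an adjusted p under 0.05, and -1.72 ± 0.34 for S100a6.

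S100a11, a partner of annexin A1, was the least counted of the genes, with 726 UMIs over the 18 libraries. It had 61.8, 8.41, 19.1 and 21.2 CPM in female KO libraries and 152, 35.2, 27.5 and 171 CPM in female WT libraries. Male KO libraries had 6.12, 2.55, 4.98, 0.614 and 2.74 CPM and male WT libraries 13.1, 7.44, 4.00, 4.63 and 7.97 CPM. The female WT libraries fell into a high pair (replicates 34 and 30) and a low pair (replicates 39 and 31), and the low pair lay within the range of female KO. Only 2 of the 5 male KO libraries reached the level of 3.64 CPM that the filter on low counts used. The other groups reached it in every library, and so did the other 9 genes in all groups. KO over WT gave a log2 fold change of -2.16 ± 0.57 in females and -1.15 ± 0.63 in males, in which the lowest library rested on 2 UMIs. In females S100a11 was called in 12 of 30 settings, with log2 fold changes of -2.52 to -0.54, and the highest of these came without female WT replicates 30 and 34. With 1 library left out the call was lost without female KO replicate 16, 1 or 7, female WT replicate 34 or 30, male KO replicate 6 or 40, or male WT replicate 37, 10, 11 or 14. Copies of S100a11 held 66 UMIs, equal to 9.09% of its own count.

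S100a10 and Anxa2 encode the subunits of one complex, in which an S100a10 dimer links annexin A2 molecules at the membrane. S100a10 had 20.6, 26.9, 44.3 and 31.0 CPM in female KO libraries and 112, 68.0, 55.6 and 58.8 CPM in female WT libraries. Anxa2 had 54.0, 31.7, 25.8 and 33.2 CPM in female KO libraries and 159, 113, 39.3 and 152 CPM in female WT libraries. The female groups did not overlap for S100a10 and overlapped for Anxa2, where replicate 31 was again the low female WT library. In males S100a10 ranged over 17.9 to 30.6 CPM in KO and 23.9 to 39.5 CPM in WT libraries. Anxa2 ranged over 14.5 to 29.5 CPM in male KO and 13.3 to 21.5 CPM in male WT libraries. The log2 fold change of KO over WT in females was -1.12 ± 0.24 for S100a10 and -1.75 ± 0.33 for Anxa2, and in males -0.27 ± 0.20 for S100a10 and 0.34 ± 0.30 for Anxa2. The difference between female and male WT libraries was also unequal for the pair, with a log2 fold change of male over female of -1.25 ± 0.22 for S100a10 and -2.70 ± 0.31 for Anxa2.

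Vim, the intermediate filament protein of mesenchymal cells and many leukocytes, had 25.7, 58.1, 33.0 and 32.2 CPM in female KO libraries and 67.2, 84.0, 59.6 and 81.3 CPM in female WT libraries. The highest female KO library, replicate 16, was just under the lowest female WT library, replicate 31. Male KO libraries had 23.4 to 44.8 CPM and male WT libraries 26.03 to 35.04 CPM, so that female KO and both male groups overlapped. Its log2 fold change of KO over WT in females, -0.88 ± 0.22, was the smallest in size of the 10. It was called in 19 of 30 settings, and the call was lost without female KO replicate 1 or 7, female WT replicate 34, 39 or 30, or male WT replicate 37.

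Set beside all genes, the 10 genes had a median log2 fold change of KO over WT of -1.56 in females and -0.04 in males, where the medians over all 10948 genes were 0.01 and -0.01. In females 9 of the 10 were called lower at an adjusted p under 0.05 by edgeR's quasi-likelihood test, in a comparison that called 1.83% of all genes lower, and the libraries of 6 did not overlap, which held for 2.84% of all genes. In males none of the 10 was called by edgeR, in a comparison that called 6.24% of genes in either direction. None of them had an unadjusted p under 0.05 in that fit. With edgeR on the male libraries alone 2 of the 10 did, where 25.5% of 10165 genes did, and none of the 10 was called. The rule that chose the genes used these values, so nothing is read from the counts. The female count depended on the fit: in an edgeR fit of the female libraries alone, with fewer genes, fewer residual degrees of freedom and a spread of its own, none of 9188 genes was called, while 828 of them (9.01%), these 10 included, had an unadjusted p under 0.05. Which of these differences lowered the count was not tested. Without female WT replicate 30 or female KO replicate 7 the number called was 6. It was also 6 with the range of reads per UMI as a covariate (median -1.35) and without the libraries of the highest range (median -1.45). With the covariate S100a4, S100a6, S100a10 and S100a11 were not called. Without the highest range Tmsb10, S100a10, S100a11 and Vim were not called.

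The difference of the KO effect between the sexes, female minus male on the log2 scale, was below 0 for all 10 genes, with a median of -1.35 against 0.01 over all genes. It was largest in size for Anxa2, at -2.09 ± 0.45, and smallest for Lsp1, at -0.71 ± 0.18. In that comparison 0.192% of genes were called lower, and 2 of the 10, Crip1 at -1.55 ± 0.33 and Fxyd5 at -1.60 ± 0.34, were among them. These calls changed with single libraries. With 1 library left out, 5 of the 10 were called without female KO replicate 33 or female WT replicate 31 and 1 without female KO replicate 16 or male WT replicate 11. None was called without female KO replicate 1 or 7, female WT replicate 34, 39 or 30, male KO replicate 36, 6 or 17, or male WT replicate 13, 37, 10 or 14.

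**Figure D2:**
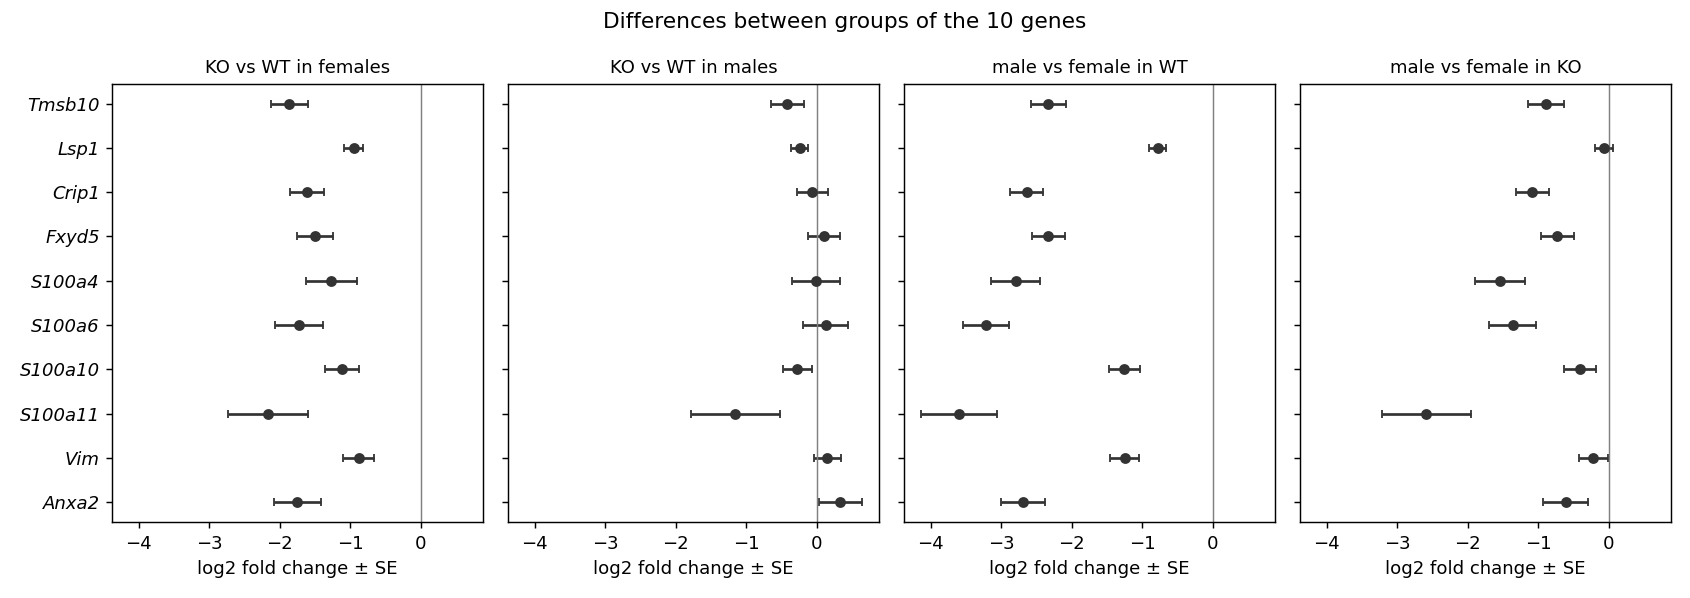
The log2 fold change of each gene with its standard error, from 1 model over 18 libraries, for KO against WT in each sex and for male against female in each genotype. Values lie left of 0 for all 10 genes in females and in both comparisons of the sexes, and in males they run from -1.15 for S100a11 to 0.34 for Anxa2.

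Between the sexes, all 10 genes were called lower in male WT than in female WT libraries, and 5 of the 10 in male KO than in female KO libraries. In WT the median log2 fold change of male over female was -2.48, and the values ran from -0.78 ± 0.12 for Lsp1 to -3.60 ± 0.54 for S100a11, which is 12.1-fold lower. For S100a11 the value was -1.94 with the range of reads per UMI as a covariate and -2.20 without the libraries of the highest range, and it was called in neither, while the other 9 were called in all 30 settings. The 10 calls stood where 10.3% of all genes were called lower, and no libraries overlapped for any of them, which held for 9.41% of genes. In KO the median was -0.80, with values from -0.07 ± 0.13 for Lsp1 to -2.59 ± 0.63 for S100a11. There 5 of the 10 (Tmsb10, Crip1, S100a4, S100a6 and S100a11) were called lower where 4.27% of genes were, and the libraries of 6 did not overlap, where 4.53% of all genes had no overlap in that direction. The number called was 2 without female KO replicate 1, female KO replicate 7 or male KO replicate 40, and 1 with the range of reads per UMI as a covariate. The comparisons of KO with WT in females and of male with female in WT share the female WT libraries, so their values are not independent of each other.

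Because the ranges of reads per UMI were spread unevenly over the groups, the differences were also taken within a range. Within the highest range, with 1 female KO and 3 female WT libraries, 9 of the 10 genes were lower in KO, with a median log2 difference of -0.95. S100a4 was the exception at 0.24. Within the middle range, with 2 female KO libraries and 1 female WT library, all 10 were lower in KO, with a median of -1.36. In males 4 of the 10 were lower in KO in the lowest range (4 KO and 3 WT libraries, median 0.04) and 9 of 10 in the middle range (1 KO library and 2 WT libraries, median -0.36). Between the sexes in WT only the middle range held both, with 2 male libraries and 1 female library, and all 10 were lower in the males, with a median of -2.39. In KO all 10 were lower in males in the lowest range (4 male libraries and 1 female library, median -0.51) and in the middle range (1 male library and 2 female libraries, median -1.15).

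The genes varied together. Over the 18 libraries Pearson's r of log2 CPM was above 0 in all 45 pairs of the 10 genes, from 0.57 to 0.98 with a median of 0.84, as a description of libraries that share groups, depth and scaling. With each gene centred on its group means, 40 of the 45 pairs were above 0, and the median was 0.36. The closest pairs were then S100a6 with Anxa2 at 0.87 and Crip1 with Fxyd5 at 0.87. Tmsb10 and Vim varied least with the others within groups, with a median r of 0.08 for Tmsb10 and 0.13 for Vim. The summed level of the 10 genes was 782, 612, 694 and 658 CPM in female KO libraries and 2312, 1658, 999 and 1913 CPM in female WT libraries (replicates in the order above). In males it was 349 to 553 CPM in KO and 443 to 499 CPM in WT libraries.

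The summed markers of monocytes and of neutrophils had, like the 10 genes, their highest mean in female WT libraries. Of 10 monocyte markers (Ly6c2, Ccr2, Plac8, Napsa, Chil3, Fn1, Ly6i, Ms4a4c, Ace and Treml4) 8 were tested with the same model, and 4 fell in female KO and none was called in male KO libraries. Of 14 neutrophil markers, Ly6g, Camp and Cxcr2 among them, 13 were tested. Of these 8 fell in female KO and none was called in male KO libraries. Elane, Prtn3 and Mpo (not tested) had higher means in female KO than in female WT libraries, and the other neutrophil markers lower ones. The means were 12.2 against 6.98 CPM for Elane, 9.06 against 4.62 CPM for Prtn3 and 2.99 against 1.46 CPM for Mpo. Of all genes 1.83% were called lower in female KO, and 6.24% were called in either direction in male KO. The summed monocyte markers were 93.2 to 131 CPM in female KO libraries, against 498, 444, 125 and 377 CPM in female WT replicates 34, 39, 31 and 30. Female WT replicate 31, the lowest of its group for 9 of the 10 genes, thus had the lowest monocyte sum of its group, within the range of female KO. The neutrophil sum was 1187 to 2083 CPM in female KO libraries, against 4375, 2706, 1755 and 8428 CPM in the same female WT libraries. Csf3r alone made up 35.5% of the neutrophil sum and had group means of 708 CPM in female KO, 784 CPM in female WT, 687 CPM in male KO and 652 CPM in male WT libraries. No marker of the monocyte or the neutrophil list was at 0 in all libraries.

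**Figure D3:**
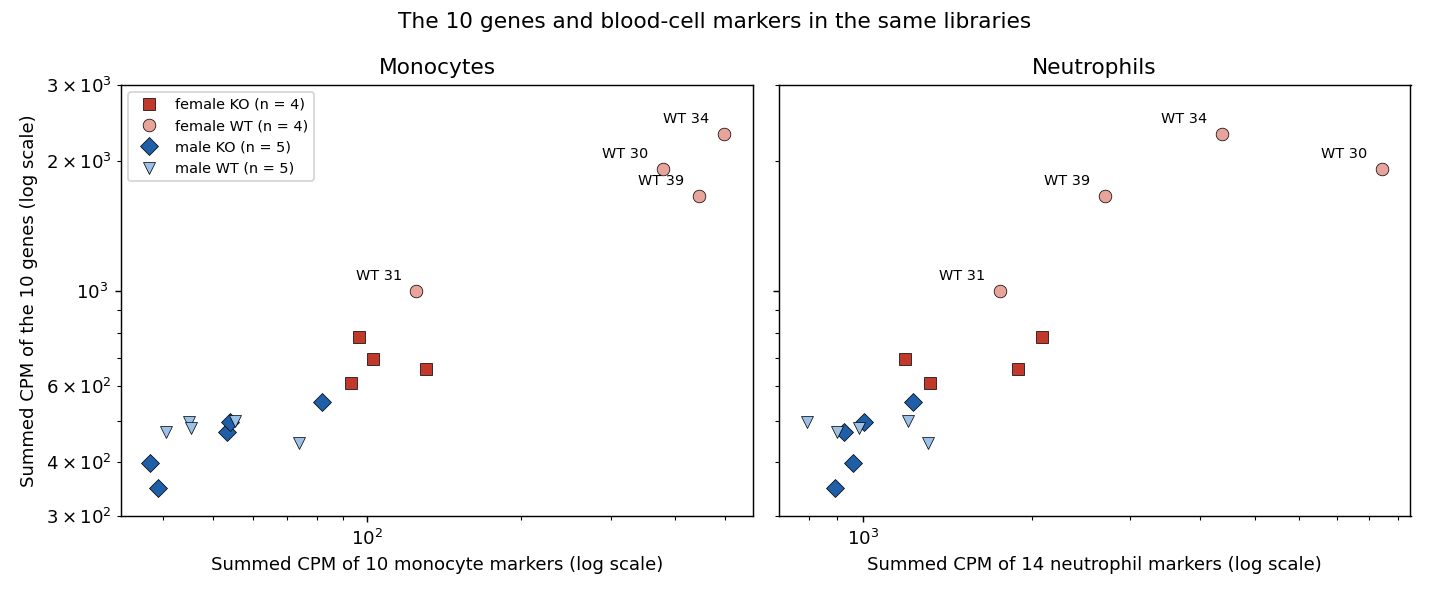
Summed CPM of the 10 genes against summed CPM of 10 monocyte markers (left) and 14 neutrophil markers (right), 1 point per library, both axes logarithmic, with a colour for each of the 4 groups. Female WT replicates 34, 39 and 30 stand at the top right, and replicate 31 lies next to the female KO libraries.

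In males the monocyte sum was 37.7 to 81.7 CPM in KO and 40.5 to 73.6 CPM in WT libraries, and the neutrophil sum 892 to 1226 CPM in KO and 796 to 1306 CPM in WT libraries. In male WT against female WT libraries 7 of 8 monocyte and 12 of 13 neutrophil markers fell, where 10.3% of all genes were called lower. In male KO against female KO libraries 3 of 8 and 3 of 13 fell, where 4.27% of all genes were called lower. The summed B cell markers, 91.1% of them from Ighm, had their lowest mean in female WT libraries. It was 837 CPM there, 975 CPM in female KO, 1216 CPM in male KO and 1041 CPM in male WT libraries. Of the 12 T and NK cell markers none had enough counts to be tested, with sums of 0.521 to 12.2 CPM. None of the 5 fibroblast markers had enough counts either. Of 10 border-associated macrophage markers none was called in female KO libraries, where 2.68% of all genes were called in either direction. In male KO libraries 7 rose, where 6.24% were called in either direction. In male WT against female WT libraries 8 fell. The part of these cells in the differences of the 10 genes was not tested. In bulk RNA, fewer cells of a type and less RNA per cell cannot be told apart.

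Leaving out female WT replicates 30 and 34, an alternative chosen after seeing the data, gave a median log2 fold change of KO over WT in females of -1.03, and 3 of the 10 genes were called lower. Male over female in WT then had a median of -2.05. Leaving out 1 library at a time kept the female median of KO over WT between -1.82 and -1.41, with 6 to 10 of the genes called.

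The 10 genes whose log2 CPM was most like the mean of the described genes over the 18 libraries were Plbd1, Lyz2, Ly6c2, Itga4, Napsa, Fgr, Ifitm2, Sh3bgrl3, Ear2 and Ltb4r1, with Pearson's r of 0.94 to 0.96. Plbd1, a granule phospholipase B-like protein, had 30.9, 30.3, 35.02 and 33.8 CPM in female KO libraries and 112, 77.6, 50.6 and 96.0 CPM in female WT libraries. Lyz2, the lysozyme of myeloid cells, had 884 ± 136 CPM in female KO libraries and 1998 ± 592 CPM in female WT libraries (SD, n = 4 each). Ly6c2, which marks classical monocytes of the mouse, had 10.3, 10.1, 12.9 and 15.4 CPM in female KO libraries and 98.5, 68.8, 18.5 and 86.7 CPM in female WT libraries. For these 3 genes too, female WT replicate 31 was the lowest of its group. Ly6c2 and Napsa are also in the list of monocyte markers. With every gene centred on its group means, the most alike were Flot2, Ehd1, Flna, Mapk3, Ccnd3, Adgre5, D17H6S53E, Cfp, Nr4a1 and Itgb7, with r of 0.86 to 0.93.

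**Figure D4:**
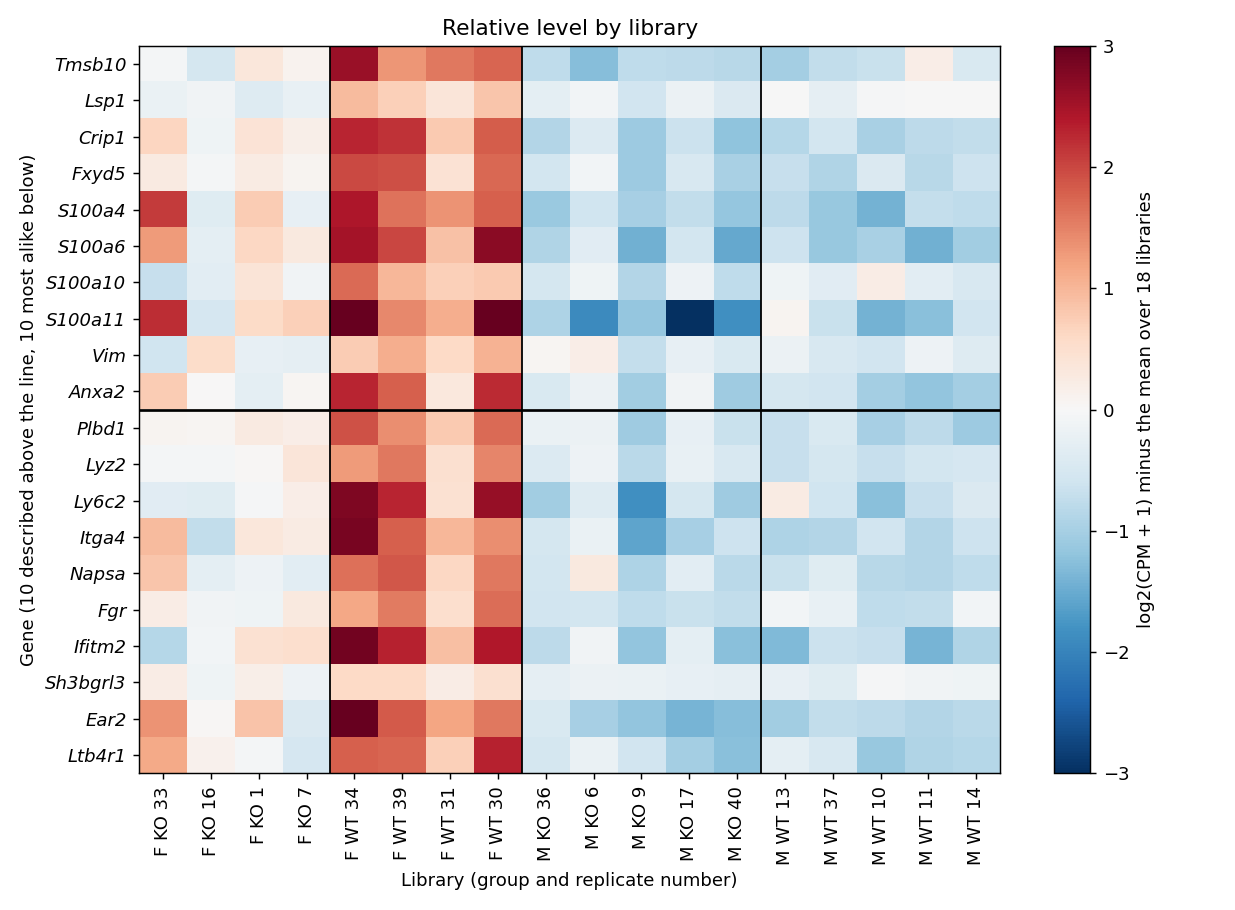
Level of the 10 described genes (above the line) and of the 10 genes most like their mean (below it) in each library, as log2(CPM + 1) minus the gene's mean over 18 libraries, with the 4 groups set apart by vertical lines. Female WT replicates 34, 39 and 30 are the darkest red columns, female WT replicate 31 is paler, and the male columns are mostly blue or near white.

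Relatives of these genes were examined in 10 lists of 119 genes, of which 91 had enough counts to be tested, adjusted over all genes tested with edgeR's quasi-likelihood test. In female KO against WT libraries 5 of the 91 fell and none rose, where 2.68% of all genes were called in either direction. The median log2 fold change of the 91 was -0.14. Of these 5 genes 4 came from the list of leukocyte adhesion receptors, galectins and related membrane proteins. Itga4, the alpha 4 integrin that leukocytes use to bind vessel walls, had 4.58 ± 2.47 CPM in female KO and 16.1 ± 10.5 CPM in female WT libraries (SD, n = 4 each), a log2 fold change of -1.91 ± 0.47 (adjusted p = 0.032). Itgb7, which pairs with it, had 11.4 ± 1.68 CPM in female KO and 30.4 ± 12.1 CPM in female WT libraries, a log2 fold change of -1.36 ± 0.32 (adjusted p = 0.027). Lgals3, galectin 3, fell by 1.30 ± 0.31 (adjusted p = 0.028) and Emp3, a small membrane protein, by 0.70 ± 0.18 (adjusted p = 0.037) on the log2 scale. Capg, which caps actin filaments, fell by 0.58 ± 0.15 (adjusted p = 0.041).

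These calls were sensitive to single libraries. Over 30 settings Itgb7 and Lgals3 were called in 21, Itga4 in 19, Emp3 in 18 and Capg in 8, and the log2 fold change stayed below 0 in each. Without female WT replicate 34, without female WT replicate 30 or without female KO replicate 7 none of the 91 genes was called, without female KO replicate 16 or 1 the number was 1, without female WT replicate 39 or male WT replicate 37 it was 3, without female WT replicate 31 it was 15 and without female KO replicate 33 it was 13. None of the 6 tested S100 genes, 8 annexins, 10 genes of actin and its monomer turnover or 9 Arp2/3 subunits outside the described genes was called in females. Tmsb4x, the major thymosin beta and the closest relative of Tmsb10, had 8692 ± 1893 CPM in female KO and 9267 ± 399 CPM in female WT libraries (SD, n = 4 each).

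In male KO against WT libraries 4 of the 91 rose and none fell, where 6.24% of all genes were called. S100b, an S100 protein of astrocytes, had 20.4 ± 9.32 CPM in male KO and 2.45 ± 1.38 CPM in male WT libraries (SD, n = 5 each), a log2 fold change of 2.93 ± 0.47 (adjusted p = 0.00045). S100a16 rose by 2.61 ± 0.57 (adjusted p = 0.0060), Csrp1, a cysteine-rich LIM protein like Crip1, by 2.02 ± 0.33 (adjusted p = 0.00048), and Marcksl1, which binds actin at the membrane, by 0.61 ± 0.18 (adjusted p = 0.046). Beside them, 2 of 3 tested astrocyte, 5 of 5 neuronal and 3 of 4 oligodendrocyte lineage markers rose in the same libraries, and their part in the rise of S100b and the other genes was not tested. Without male KO replicates 6, 9 and 17 together the number called was 1. Their summed neuronal markers were 261, 328 and 204 CPM, against 68.8 and 83.7 CPM in male KO replicates 36 and 40. Their oligodendrocyte lineage sums were 643, 825 and 565 CPM, against 243 and 285 CPM. Why fewer genes were called without them was not tested. In the difference of the KO effect between the sexes none of the 91 genes was called by edgeR, where 0.237% of all genes were, and DESeq2 called 5.

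Between the sexes the relatives included more genes that changed. In male WT against female WT libraries 29 of the 91 fell and 5 rose, where 17.3% of all genes were called. Of 12 tested adhesion receptors, galectins and Ahnak 9 fell, with Cd44, the hyaluronan receptor, at -3.43 ± 0.49 (adjusted p = 7.2e-05), Itgb7 at -2.30 ± 0.30 (adjusted p = 3.5e-05), Lgals3 at -2.28 ± 0.28 (adjusted p = 1.8e-05) and Emp3 at -1.17 ± 0.16 (adjusted p = 5.7e-05) on the log2 scale. Each of these 4 genes was called in all 30 settings. Itgam, an integrin of microglia and other myeloid cells, rose by 0.51 ± 0.13 in male KO libraries relative to female KO (adjusted p = 0.022). It was the only relative to rise there. In WT Itgam was the 1 gene of its list to rise, and it was called in 24 of 30 settings. It had 1022 ± 62.2 CPM in male WT (SD, n = 5) and 745 ± 114 CPM in female WT libraries (SD, n = 4). Of the 38 actin-binding proteins tested 9 fell, among them Msn (moesin, -1.35 ± 0.19), Flna (filamin A, -1.24 ± 0.17) and Iqgap1 (-1.87 ± 0.30), while Vasp rose by 0.69 ± 0.11. The adjusted p of these 4 genes was at most 0.00030. Of 10 genes of actin and its monomer turnover Twf1, Dstn and Actg1 fell and Cfl2 rose, and of 9 Arp2/3 subunits Actr3 fell, by 0.85 ± 0.20 (adjusted p = 0.0058). Among 8 annexins Anxa3 rose by 0.64 ± 0.14 (adjusted p = 0.0034) and Anxa11 fell by 1.17 ± 0.32 (adjusted p = 0.014), but without the libraries of the highest range of reads per UMI Anxa11 was 0.49 higher in males.

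Among the S100 genes outside the described ones, S100a8 and S100a9, which form calprotectin in neutrophils, were far lower in males. S100a9 had 109 ± 52.5 CPM in male KO and 267 ± 156 CPM in male WT libraries (SD, n = 5 each), against 1001 ± 981 CPM in female KO and 2762 ± 2469 CPM in female WT libraries (SD, n = 4 each). Its log2 fold change of male over female was -3.37 ± 0.64 in WT (adjusted p = 0.0011) and -3.17 ± 0.64 in KO (adjusted p = 0.0057). S100a8 gave -4.04 ± 0.79 in WT (adjusted p = 0.0015) and -4.13 ± 0.82 in KO (adjusted p = 0.0049). In WT both were called in 27 of 30 settings. Neither passed with the range of reads per UMI as a covariate, where the log2 fold change was -1.13 for S100a8. Neither passed without the libraries of the highest range, nor without female WT replicates 30 and 34. S100a9 did not pass in KO over WT in females, at -1.50 on the log2 scale, nor S100a8, at -0.98.

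Tmsb4x fell in male libraries in both genotypes, at -1.40 ± 0.15 in WT (adjusted p = 4.1e-06) and -1.30 ± 0.15 in KO (adjusted p = 3.7e-05). Its levels were 3530 ± 608 CPM in male KO and 3502 ± 533 CPM in male WT libraries (SD, n = 5 each), below each of the female libraries. Anxa1, a partner of S100a11, had 3.62 ± 2.45 CPM in male KO and 4.94 ± 1.97 CPM in male WT libraries (SD, n = 5 each), against 12.1 ± 7.53 CPM in female KO and 45.9 ± 22.9 CPM in female WT libraries (SD, n = 4 each). Its log2 fold change of male over female was -3.15 ± 0.45 in WT (adjusted p = 7.2e-05) and -1.95 ± 0.47 in KO (adjusted p = 0.016). In male KO against female KO libraries 8 of the 91 relatives fell and 1 rose, where 7.1% of all genes were called.

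The nearest tested genes on either side of the described ones numbered 16, and none of these neighbours was called in female KO against WT libraries by edgeR. In male WT against female WT libraries 5 of the 16 were called, 4 of them lower, where 17.3% of all genes were called and 10.3% were called lower. Within the S100A group on chromosome 3, S100a1, S100a13, S100a16, S100a8 and S100a9 lie in the same cluster as S100a4 and S100a6, and their log2 fold changes of KO over WT in females were -0.34 for S100a1, 0.05 for S100a13, 0.18 for S100a16, -0.98 for S100a8 and -1.50 for S100a9, none of them called.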

How the data were processed

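Microglial RNA of 18 libraries was counted. The authors deposited whole-number counts per gene in 2 tables, reads before UMI correction and UMI-corrected counts, neither scaled for depth. Of tools, cutadapt, STAR and HTSeq (no version), and of builds mm10, appear in the submitters' processing notes. How UMIs were corrected, the annotation and the strand setting: not given in the sources used here. Of 34 library columns per table, 16 belong to none of the samples and were left out. UMI-corrected counts were analysed, 435838 to 9149144 per library. Symbols and positions came from GENCODE M21 (GRCm38).

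Genes were filtered with filterByExpr by group (minimum count 10), scaled by TMM and fitted with 1 mean per group over all 18 libraries in edgeR 4.0.16 (R 4.3.3, limma 3.58.1), whose quasi-likelihood test gave Benjamini-Hochberg adjusted p over 10948 genes, with a threshold of 0.05. The script was tested on simulated data. Summed CPM used the library total, and log2 CPM a prior count of 2. In each of 32 pairs of libraries of 1 group the counts differed beyond sampling noise (chi-square over its degrees of freedom, 2.74 to 12.7). None was therefore treated as repeat sequencing of the same library. Whether the libraries came from separate animals cannot be read from these values.

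The 10 genes, the lists of relatives and the marker lists were chosen with earlier results of these data known. One microglial marker is not reported here and was left out of its list's sum. Named were the 10 genes, up to 4 called genes of lowest p per list of relatives and comparison, and the 10 genes most alike. The lists of relatives were S100 genes, annexins, thymosins, cysteine-rich LIM proteins, FXYD proteins, intermediate filaments and lamins (all outside the 10 genes), actin and its monomer turnover, the Arp2/3 complex, actin-binding and actin-regulating proteins, and leukocyte adhesion receptors with galectins and Ahnak. Copies were annotated transcripts matching at least 100 of the last 500 bases at 95% identity. Alternatives were other scalings, no filter beyond 1 UMI, DESeq2 1.42.0, read counts, only the 2 groups compared, the range of reads per UMI as covariate (limits 2.4 and 4), 1 surrogate variable (sva 3.50.0) and libraries left out.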

Additional observations from a re-analysis of the deposited data

Results flagged for a closer look

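Of 40 groups of 4 or 5 libraries examined for the 10 genes, 2 held a library far from the others, where chance gives about 1 in 20. Tmsb10 had 18.2 CPM in male KO replicate 6, and the other 4 male KO libraries lay between 25.2 and 26.6 CPM. Lsp1 had 201.6 CPM in male WT replicate 37, and the other 4 male WT libraries lay between 238 and 243 CPM. The KO effect differed between the sexes, female minus male on the log2 scale, for Crip1 at -1.55 and for Fxyd5 at -1.60. These values of Crip1 and Fxyd5 belong to genes chosen for their pattern over the groups and are given as a description.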

How the results depend on the processing

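No paired analysis was possible because no replicate number occurs in more than 1 group. Medians are log2 fold changes of the 10 genes, followed by how many of the 10 and of their relatives were called. In female KO against WT (-1.56, 9 and 5), the relatives called were 14 without a filter, 10 by DESeq2, 15 with 1 surrogate variable and 0 with only the 2 groups, where 0 of the 10 were called. Without female WT replicates 30 and 34 the median was -1.03, with 3 of the 10 and 0 relatives. In male KO against WT (-0.04, 0 and 4), 1 of the 10 was called without a filter, and the relatives were 13 without a filter, 2 from read counts, 10 with only the 2 groups, 9 without the highest range of reads per UMI and 1 without male KO replicates 6, 9 and 17. In male against female WT (-2.48, 10 and 34), the median was -1.91 with the range as covariate and -2.05 without female WT replicates 30 and 34, and the relatives were 18 with the covariate, 17 without the highest range and 17 without those replicates. In male against female KO (-0.80, 5 and 9), 1 of the 10 was called with the covariate, 3 with 1 surrogate variable and 1 without male KO replicates 6, 9 and 17, and the relatives were 16 without a filter, 5 with only the 2 groups and 1 without those replicates. In the difference of the KO effect (-1.35, 2 and 0), 7 of the 10 were called without a filter, 6 by DESeq2, 5 with 1 surrogate variable and 0 with RLE scaling, from read counts, with the covariate, without the 2 shallowest libraries, without male KO replicates 6, 9 and 17 or without female WT replicates 30 and 34. Its relatives were 11 without a filter, 5 by DESeq2, 3 with 1 surrogate variable, 2 without the highest range and 1 without the 2 shallowest libraries. Male over female WT changed sign for Myl12b (0.46 from read counts) and Anxa11 (0.036 with the covariate, 0.49 without the highest range). The cause was not tested.

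With 1 library left out, the female KO median ran from -1.82 to -1.41, with 6 to 10 genes and 0 to 15 relatives called. In male KO it ran from -0.14 to 0.06, with 0 genes and 3 to 5 relatives. Male against female WT ran from -2.74 to -2.35, with 10 genes and 26 to 45 relatives. Male against female KO ran from -0.93 to -0.71, with 2 to 6 genes and 6 to 13 relatives, and the 2 came without female KO replicate 1 or 7 or male KO replicate 40. The difference ran from -1.53 to -1.12, with 0 to 5 genes and 0 to 8 relatives. All 300 single-gene values of KO against WT in females were below 0. Low counts limit S100a11 in males, where libraries held as few as 2 UMIs of this gene.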
